A study of Mus musculus with 12 samples.

Results

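The genes described here are 42 enzymes and carriers of sugar and lactate handling in mouse kidney: the steps of glycolysis and gluconeogenesis, the kinases that regulate pyruvate use, and the carriers that move glucose and lactate across the cell membrane. They were taken by gene symbol from 40213 rows in the deposited count files, and the list was written with earlier results of these data known. All 42 symbols were found, and all 42 were among the 17841 genes that passed the filter on low counts and were tested. Of these, 39 would also have passed on the control libraries alone, and Hk3, Pfkfb1 and Slc16a3 passed through the adenine-fed libraries.

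RNA was sequenced from kidney tissue of C57BL/6 mice in 3 groups of 4 libraries. The first group received adenine in the diet together with colchicine, a tubulin-binding anti-inflammatory alkaloid, at 0.3 mg/kg per day by intraperitoneal (IP) injection. The second group, adenine-induced chronic kidney disease (CKD), received a diet labelled 2% adenine and saline by the same route, and the control group received normal diet and saline. The labels give replicates 1, 2, 3 and 4 of the colchicine group 2, 3, 4 and 5% adenine, while the design text describes a single adenine model, so for replicates 2, 3 and 4 colchicine and the labelled adenine cannot be told apart. All libraries carry the label batch 1, and age and sex were not analysed here. The libraries are called biological replicates without naming animals, so each p-value covers only how far these samples varied, which may be technical.

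Glycolysis splits glucose into pyruvate, which becomes lactate or enters the mitochondrion. Gluconeogenesis runs the other way through its own enzymes, and the proximal tubule of the kidney is, with the liver, a main site of it. Proximal tubule cells take glucose back from the filtrate through sodium-glucose cotransporters, burn mostly fatty acids and lactate, and carry little hexokinase activity, while the more distal nephron uses more glucose.

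Library totals ranged from 22200909 to 38253100 counts. Mitochondrially encoded transcripts took 14.6 to 21.8% of the counts with colchicine, 16.7 to 17.3% in CKD and 41.5 to 46.7% in control, so scaling matters for every comparison with control. Levels are counts per 1000000 (CPM) with TMM factors, the trimmed mean of log ratios between libraries, and fold changes are relative to that scaling. For CKD against control the all-gene median (log2) was 0.04 with TMM, 0.17 with upper-quartile factors and 1.05 when libraries were scaled by their totals only. For colchicine against control it was 0.10 with TMM and 1.14 with totals only. All 10 proximal tubule markers fell in CKD, with a summed level of 1045 to 1371 CPM in CKD libraries and 10111 to 10863 CPM in control libraries. All 8 macrophage, 6 neutrophil and 7 fibroblast markers rose, and the summed macrophage level was 1011 to 1045 CPM in CKD and 86.0 to 102 CPM in control. Markers of other kidney cells fell as well, 6 of 7 of the collecting duct, 5 of 6 of the endothelium and 4 of 6 of the loop of Henle and distal tubule, where 1 rose, but the endothelial Pecam1, Emcn, Flt1 and Tie1 and the collecting duct Scnn1g stood above 0 under library totals only. All 5 tested erythrocyte markers fell, with a summed level of 33.2 to 97.5 CPM in CKD and 178 to 526 CPM in control, and all 4 tested liver markers fell. No marker of these lists was at 0 in every library. In bulk tissue, fewer cells of a type and less RNA per cell cannot be told apart, and the part of these shifts in the results that follow was not tested.

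Promoter sequence was shown for members that moved in opposite directions in CKD while holding the same short motif, ACGTG, and for Pck1, which holds another motif. The windows are the 250 bases before the RefSeq gene start in build GRCm38.p6, and such a window was found for 39 of the 42 members. The motif ACGTG is the core of the element that hypoxia-inducible factor binds, and capitals mark it or its reverse complement CACGT. Slc16a3 (chr11:120948817-120949066, plus strand), Hk2 (chr6:82774455-82774704, minus strand) and Slc2a1 (chr4:119108495-119108744, plus strand) were higher in CKD than in control. Ldha (chr7:46845554-46845803, plus strand, 1 of the 2 windows of the gene) and Pgk1 (chrX:106186850-106187099, plus strand) were lower with the TMM scaling described above. In Pck1 (chr2:173152823-173153072, plus strand) capitals mark the reverse complement of TGACG, a core of the sites that CREB proteins bind, and Pck1 was also lower.
Slc16a3: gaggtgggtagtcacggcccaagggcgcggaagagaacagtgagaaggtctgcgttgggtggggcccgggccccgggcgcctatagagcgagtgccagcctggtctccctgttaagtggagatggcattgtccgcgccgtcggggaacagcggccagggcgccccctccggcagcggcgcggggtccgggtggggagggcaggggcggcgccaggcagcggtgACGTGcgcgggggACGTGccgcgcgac
Hk2: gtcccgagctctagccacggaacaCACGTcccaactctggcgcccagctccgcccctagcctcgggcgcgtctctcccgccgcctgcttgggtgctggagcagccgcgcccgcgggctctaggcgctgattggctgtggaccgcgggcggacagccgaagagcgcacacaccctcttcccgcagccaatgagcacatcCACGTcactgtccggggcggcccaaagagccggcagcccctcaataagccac
Slc2a1: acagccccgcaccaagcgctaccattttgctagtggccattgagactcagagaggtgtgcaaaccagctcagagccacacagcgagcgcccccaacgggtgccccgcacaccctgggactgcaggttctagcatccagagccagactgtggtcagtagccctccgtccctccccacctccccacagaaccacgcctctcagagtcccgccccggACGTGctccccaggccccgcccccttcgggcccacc
Ldha: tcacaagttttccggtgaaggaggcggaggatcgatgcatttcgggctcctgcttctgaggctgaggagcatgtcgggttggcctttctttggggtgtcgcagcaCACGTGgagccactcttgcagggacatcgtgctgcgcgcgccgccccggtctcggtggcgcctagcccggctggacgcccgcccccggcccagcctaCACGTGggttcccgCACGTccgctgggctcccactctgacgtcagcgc
Pgk1: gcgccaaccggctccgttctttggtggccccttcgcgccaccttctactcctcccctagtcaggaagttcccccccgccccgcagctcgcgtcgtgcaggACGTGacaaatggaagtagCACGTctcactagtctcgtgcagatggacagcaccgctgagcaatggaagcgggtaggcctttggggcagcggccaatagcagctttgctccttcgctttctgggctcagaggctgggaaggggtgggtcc
Pck1: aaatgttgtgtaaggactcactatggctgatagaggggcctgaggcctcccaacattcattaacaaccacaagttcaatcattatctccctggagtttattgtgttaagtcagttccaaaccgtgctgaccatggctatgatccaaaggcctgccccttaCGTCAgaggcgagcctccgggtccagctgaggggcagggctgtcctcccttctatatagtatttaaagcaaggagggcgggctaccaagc

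Searched on both strands, ACGTG stood in 16.6% of the 32851 windows of the table and in 22 of the 60 windows of members, which belong to 18 of 39 genes. Of members with a window, it was present in 6 of 10 called higher in CKD, 10 of 21 called lower and 2 of 8 not called. A gene counted here if any of its windows held the motif. The share by gene over all genes was not computed, so the 16.6% of windows is no background for these counts. TGACG stood in 17.8% of all windows and in 10 of the 60 windows of members, and GTTAAT, a part of the sites of HNF1 factors, in 6.43% of all windows and in 3 of the 60. TGACG can share bases with ACGTG, as in TGACGTG. These matches are descriptions of the windows and say nothing of binding.

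The first comparison asks what adenine feeding did to this pathway. The gluconeogenic Fbp1 and Pcx, the fructokinase Khk, the cotransporters Slc5a2, Slc5a8 and Slc5a12 and the tubular glucose carrier Slc2a2 fell between 4.22 and 11.1 times, and were also lower under library totals only. The hexokinases Hk2 and Hk3, the enolase Eno2, the lactate exporter Slc16a3 and the glucose carrier Slc2a3 rose by 1.66 to 4.16 on the log2 scale. By edgeR's quasi-likelihood test, 11 of 42 members (26.2%) were higher and 23 (54.8%) were lower in CKD, against 34.1% higher and 33.4% lower of all genes tested. The 11 include Hk3 and Slc16a3, which passed the filter on low counts only through the adenine-fed libraries. In either direction 67.4% of all genes were called, and 69.7% passed an unadjusted p below 0.05. The members' median log2 fold change was -0.49, where that of all genes was 0.04. Under library totals only, 25 members were higher and 14 lower, and the members that changed sign are named with their roles.

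**Figure D1:**
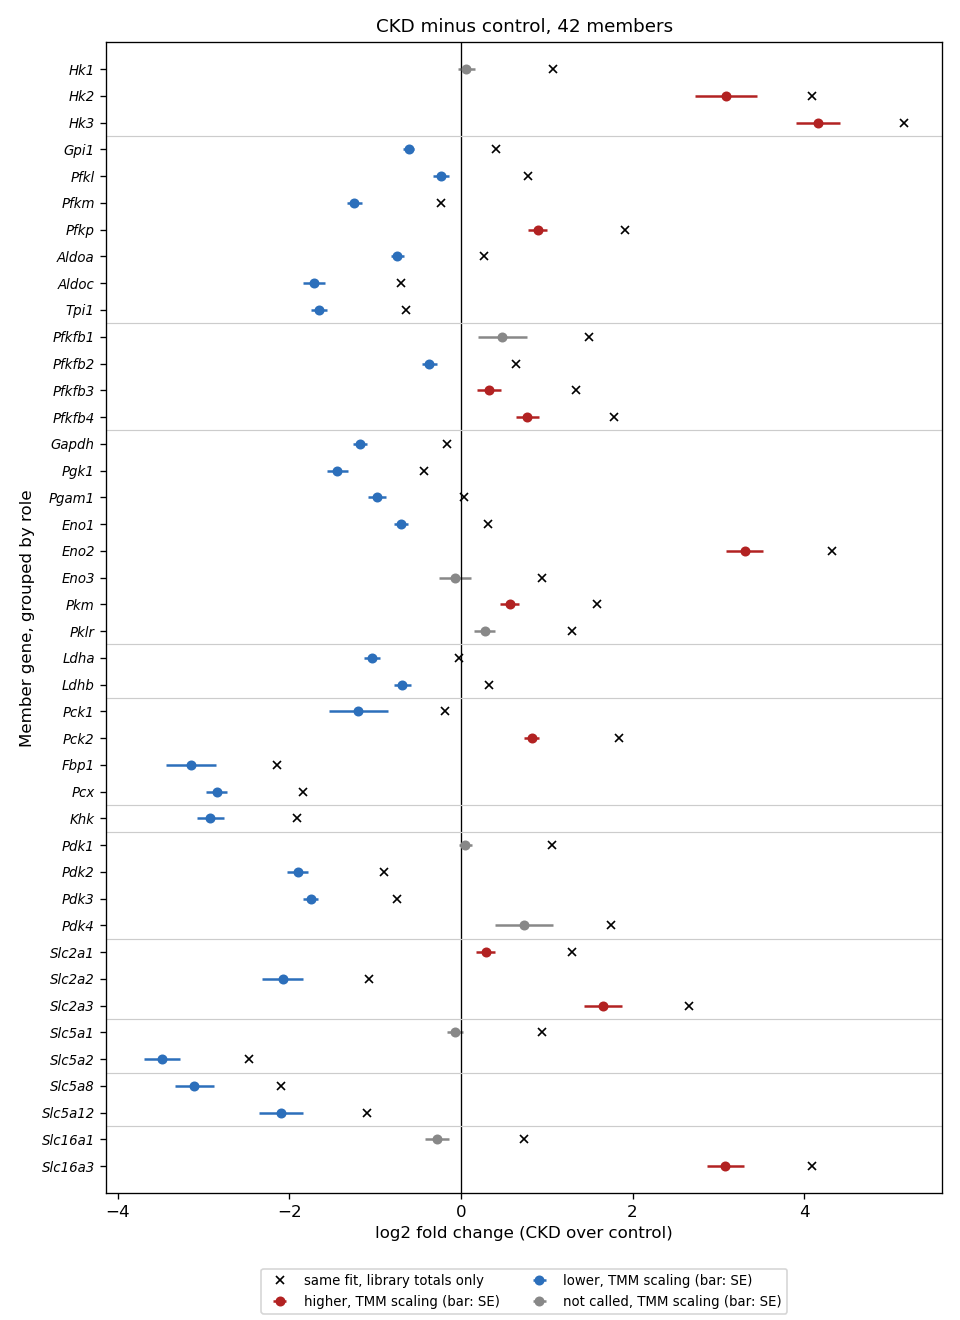
Log2 fold change (x axis) of the 42 members (y axis, grouped by role) in CKD over control, from all 12 libraries. Circles with bars are TMM-scaled values with their SE, coloured by call at an adjusted p below 0.05, and crosses are the same fit under library totals only, which lie about 1 unit to the right, so that Gpi1, Pfkl, Aldoa, Pfkfb2, Pgam1, Eno1, Eno3, Ldhb, Slc5a1 and Slc16a1 change sign. Hk2, Hk3, Eno2 and Slc16a3 lie beyond 3 on the right and Fbp1, Slc5a2 and Slc5a8 beyond -3 on the left.

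Hexokinases phosphorylate glucose and hold it in the cell. Hk2, the inducible form that hypoxia and growth signals raise, stood at 19.1, 20.1, 20.4 and 19.4 CPM in CKD libraries and at 1.11, 3.92, 2.60 and 1.57 CPM in control libraries. Every CKD library lay above every control library, the control values differed among themselves by more than 3-fold, and the log2 fold change was 3.09 ± 0.36 (SE, edgeR adjusted p = 8.5e-06). Hk3, a form known from leukocytes, stood at 5.94, 7.98, 6.07 and 5.23 CPM in CKD and at 0.350, 0.407, 0.205 and 0.406 CPM in control, where the lowest library had 3 counts. Hk3 passed the filter on low counts only through the adenine-fed libraries, where it was high. The groups did not overlap, at a log2 fold change of 4.16 ± 0.26 (edgeR adjusted p = 1.4e-09), and the macrophage and neutrophil markers rose with it. Hk1, the constitutive form that most cells use, averaged 99.0 ± 4.43 CPM in CKD and 94.7 ± 11.7 CPM in control (SD, n = 4 each) and was not called.

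Phosphofructokinase commits sugar to glycolysis, and Pfkp and Pfkm moved in opposite directions. Pfkp, the platelet-type subunit, stood at 85.3, 90.1, 93.7 and 80.7 CPM in CKD and at 61.2, 39.7, 44.3 and 43.2 CPM in control. It was higher in every CKD library, by 0.89 ± 0.11 on the log2 scale (edgeR adjusted p = 3.4e-06), and control replicate 1 was the highest of its group. Pfkm, the muscle-type subunit, stood at 14.8, 15.2, 15.4 and 16.1 CPM in CKD and at 40.0, 33.8, 34.2 and 37.4 CPM in control. It fell 2.37 times, with groups far apart (edgeR adjusted p = 4.1e-09). Pfkl, the liver-type subunit, averaged 43.6 ± 2.20 CPM in CKD and 51.1 ± 5.00 CPM in control, a call at an edgeR adjusted p of 0.0466 that was lost without CKD replicate 2, 3 or 4 (0.0879, 0.116 and 0.0866) or control replicate 1, 3 or 4 (0.167, 0.0618 and 0.0503), by DESeq2 (0.0938), limma-voom (0.0560), RLE or upper-quartile scaling (0.0523 and 0.382) and both other count filters (0.183 and 0.0550), and that turned to 0.78 under library totals only. The skeletal muscle markers summed to 0.641 to 1.41 CPM in CKD and 0.822 to 1.98 CPM in control, and of the 6 listed only 2 passed the filter and neither was called.

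The bifunctional Pfkfb enzymes make and break fructose 2,6-bisphosphate, the activator of phosphofructokinase. Pfkfb4 stood at 9.81, 10.1, 10.4 and 9.29 CPM in CKD and at 6.06, 5.45, 4.45 and 7.13 CPM in control. It was higher in every CKD library, by 0.78 ± 0.13 (log2, edgeR adjusted p = 8.7e-05). Pfkfb3, the form with the strongest kinase activity, averaged 39.4 ± 2.48 CPM in CKD and 31.4 ± 2.47 CPM in control, and its call, at an adjusted p just under 0.05, was lost by DESeq2, limma-voom, RLE scaling, the replicate block and on leaving out any of 9 of the 12 libraries; colchicine replicates 1 and 4 and control replicate 4 were the exceptions. Pfkfb2 averaged 16.1 ± 1.10 CPM in CKD and 20.8 ± 1.62 CPM in control and fell by 0.37 on the log2 scale, but stood at 0.64 under library totals only. Pfkfb1, a liver and muscle form, averaged 1.52 ± 0.437 CPM in CKD and 1.07 ± 0.360 CPM in control and was not called.

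The remaining shared enzymes of glycolysis fell under TMM scaling, and for Gpi1, Aldoa, Pgam1 and Eno1 the sign depended on the scaling. Tpi1, triosephosphate isomerase, stood at 170, 160, 174 and 177 CPM in CKD and at 586, 537, 506 and 512 CPM in control. It was 3.14 times lower in CKD (edgeR adjusted p = 3.9e-10), and Pgk1, which makes the first ATP of the pathway, was 2.71 times lower at 145 ± 9.36 CPM in CKD and 392 ± 17.6 CPM in control. Gapdh, often used as a reference transcript, averaged 799 ± 31.2 CPM in CKD and 1803 ± 109 CPM in control, a log2 fold change of -1.17 ± 0.08 under TMM and -0.16 under library totals only. Aldoc, the brain-type aldolase, fell by 1.71 on the log2 scale to 5.42 ± 0.731 CPM in CKD, against 17.7 ± 2.07 CPM in control. Gpi1, Aldoa, Pgam1 and Eno1 fell by 0.61, 0.74, 0.97 and 0.70 on the log2 scale under TMM and stood at 0.40, 0.27, 0.04 and 0.31 under library totals only. Genes such as Gapdh, Pgk1, Pgam1, Eno1, Aldoa, Ldha, Tpi1 and Pkm have processed copies in the genome, so how reads common to a gene and its copies were assigned is uncertain.

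Enolase and pyruvate kinase, the last steps, also differed by isoform. Eno2, the enolase known from neurons, stood at 8.34, 10.04, 7.53 and 9.46 CPM in CKD and at 1.28, 0.815, 0.822 and 0.638 CPM in control. The groups were far apart, 9.90-fold (log2 3.31 ± 0.21, edgeR adjusted p = 2.2e-09). Eno3, the muscle form, averaged 7.65 ± 1.01 CPM in CKD and 8.02 ± 1.64 CPM in control and was not called. Pkm, the pyruvate kinase of most cells, stood at 233, 221, 225 and 229 CPM in CKD and at 165, 150, 149 and 149 CPM in control. It was 1.48-fold higher with no overlap (edgeR adjusted p = 0.000318), and gene-level counts do not separate its M1 and M2 splice forms. Pklr, the form of liver, proximal tubule and red cells, averaged 33.1 ± 1.75 CPM in CKD and 27.3 ± 2.48 CPM in control. Its log2 fold change of 0.28 ± 0.12 missed the threshold (edgeR adjusted p = 0.0610). It passed by upper-quartile scaling, library totals only (log2 1.29), either other count filter, the replicate block or a fit of these 8 libraries. It also passed without colchicine replicate 1, 2 or 4 (edgeR adjusted p = 0.0454, 0.0303 and 0.0447).

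Both lactate dehydrogenase genes were called lower in CKD under TMM, and neither was called lower under library totals only. Ldha, whose product favours making lactate, stood at 242, 228, 260 and 258 CPM in CKD and at 532, 531, 463 and 500 CPM in control. It fell by 1.04 on the log2 scale (SE 0.10) under TMM and by 0.02 under library totals only. Ldhb, the form of lactate-using tissue, averaged 595 ± 19.5 CPM in CKD and 953 ± 35.5 CPM in control, at -0.68 ± 0.10 under TMM and 0.33 under library totals only. Of the monocarboxylate transporters that carry lactate with a proton, Slc16a3 (MCT4), the exporter of glycolytic cells, stood at 5.91, 5.77, 5.72 and 4.53 CPM in CKD and at 0.816, 0.458, 0.685 and 0.638 CPM in control. Every CKD library was above every control library, at 8.46-fold (log2 3.08 ± 0.21, edgeR adjusted p = 4.8e-09). Slc16a3 passed the filter on low counts only through the adenine-fed libraries, where it was high, and its lowest control library had 9 counts. Slc16a1 (MCT1), which works in both directions, averaged 32.8 ± 3.50 CPM in CKD and 39.8 ± 7.13 CPM in control; it was not called, and without control replicate 3 it was (-0.38, edgeR adjusted p = 0.0238).

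The enzymes particular to gluconeogenesis fell, except the mitochondrial isoform of one. Fbp1, fructose-1,6-bisphosphatase, stood at 107, 89.1, 128 and 107 CPM in CKD and at 907, 982, 894 and 1026 CPM in control. Pcx, pyruvate carboxylase, stood at 36.4, 28.5, 36.4 and 39.2 CPM in CKD and at 236, 252, 242 and 280 CPM in control. Neither pair of groups came near overlapping: Fbp1 was 8.84 times lower (edgeR adjusted p = 8.4e-07) and Pcx 7.18 times lower (3.4e-11). Pck1, cytosolic phosphoenolpyruvate carboxykinase and the rate-setting step, stood at 697, 767, 989 and 887 CPM in CKD and at 2009, 1837, 1851 and 1942 CPM in control. It was 2.29 times lower (edgeR adjusted p = 0.00929), a call lost under library totals only at -0.18 (edgeR adjusted p = 0.617). Pck2, the mitochondrial form, which the amino acid stress factor ATF4 is known to raise, stood at 20.2, 23.3, 21.3 and 21.9 CPM in CKD and at 12.4, 11.9, 12.1 and 12.5 CPM in control, and rose 1.77-fold (edgeR adjusted p = 8.3e-07). Khk, the fructokinase of the proximal tubule, averaged 45.5 ± 3.63 CPM in CKD and 344 ± 27.3 CPM in control and was 7.57 times lower. The proximal tubule markers that moved with these genes fell by a median of 3.24 on the log2 scale.

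Pyruvate dehydrogenase kinases switch off the entry of pyruvate into the mitochondrial cycle. Pdk2 averaged 102 ± 2.77 CPM in CKD and 381 ± 15.9 CPM in control, and Pdk3 32.1 ± 0.632 CPM in CKD and 108 ± 3.70 CPM in control. They fell 3.74 and 3.37 times with no overlap. Pdk4, the form that fasting and fatty acids induce, stood at 30.4, 35.2, 31.8 and 42.8 CPM in CKD and at 16.9, 26.6, 23.6 and 17.0 CPM in control. Every CKD library lay above every control library, yet at 0.74 ± 0.33 (log2) it missed the threshold (edgeR adjusted p = 0.0716). It passed with upper-quartile factors (edgeR adjusted p = 0.0293), library totals only (0.000688) and in a fit of these 8 libraries (0.00287). It also passed without colchicine replicate 1 or 4 (edgeR adjusted p = 0.0100 and 0.0369). Pdk1, a hypoxia-responsive form, averaged 26.3 ± 1.23 CPM in CKD and 25.3 ± 1.93 CPM in control and was not called.

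Among the glucose carriers the tubular pair Slc5a2 and Slc2a2 fell. Slc5a2 (SGLT2), the apical sodium-glucose cotransporter of the early proximal tubule and the target of gliflozin drugs, stood at 23.7, 20.4, 25.9 and 23.2 CPM in CKD and at 263, 275, 236 and 265 CPM in control. It was 11.1 times lower (log2 -3.48 ± 0.21, edgeR adjusted p = 4.3e-09), the largest fall among the 42 genes. Slc2a2 (GLUT2), which passes glucose on to the blood side of the same cells, stood at 27.5, 26.3, 37.6 and 31.4 CPM in CKD and at 105, 138, 122 and 153 CPM in control, 4.22 times lower. Slc5a1 (SGLT1), the high-affinity cotransporter of the late proximal tubule, stood at 65.9, 63.3, 65.4 and 65.8 CPM in CKD and at 81.4, 61.9, 63.7 and 65.4 CPM in control. These groups overlapped and the log2 fold change was -0.07 ± 0.09 under TMM, and 0.95 under library totals only.

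The carriers of general glucose uptake were higher in CKD. Slc2a3 (GLUT3), known from neurons and leukocytes, stood at 3.87, 4.63, 4.73 and 4.64 CPM in CKD and at 1.11, 1.32, 1.51 and 1.74 CPM in control, and was 3.15-fold higher (edgeR adjusted p = 8.5e-06). Slc2a1 (GLUT1), the carrier of the distal nephron and of many other cells, stood at 61.3, 70.1, 64.4 and 57.0 CPM in CKD and at 52.9, 46.5, 54.4 and 53.3 CPM in control. The gap was small, 1.22-fold (edgeR adjusted p = 0.0293), and the call was lost without CKD replicate 2 or 3 or control replicate 2 (edgeR adjusted p = 0.0977, 0.0623 and 0.0975). The sodium-lactate cotransporters of the proximal tubule fell: Slc5a8 (SMCT1) was 8.60 times lower at 38.8 ± 2.29 CPM in CKD and 334 ± 40.8 CPM in control, and Slc5a12 (SMCT2) 4.28 times lower at 62.0 ± 10.9 CPM in CKD and 265 ± 57.9 CPM in control.

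The second comparison asks what colchicine did in adenine-fed kidneys. The lactate exporter Slc16a3 and the phosphofructokinase subunit Pfkl rose. The tubular carriers Slc5a1, Slc5a8, Slc5a12 and Slc2a2, the gluconeogenic Fbp1 and Pcx, and Pklr and Pdk3 fell, by 0.29 to 1.24 on the log2 scale. By edgeR's test, 2 members (4.76%) were higher and 8 (19.0%) lower with colchicine, against 6.79 and 8.24% of all genes, and 32 were not called, which does not show that they were unchanged. Leaving out 1 library moved these counts: without colchicine replicate 1, 4 members were higher and 10 lower, while 2882 genes were higher and 3519 lower over all. Without colchicine replicate 4, 11 members and 1252 of all genes were lower, where the fit of all libraries had 1470 genes lower. Without replicate 2, 5 members and 707 genes were lower, and without replicate 3, 4 members and 756 genes. Without any 1 CKD library, 4 members and 573 to 899 genes were lower. In either direction 15.0% of all genes were called, and 33.0% passed an unadjusted p below 0.05. The members' median was -0.04 on the log2 scale and that of all genes 0.03, and library totals only left the sign of each of these 10 as it was. Among proximal tubule markers 5 of 10 fell and none rose, with a summed level of 627 to 1052 CPM with colchicine and 1045 to 1371 CPM in CKD. Of 7 fibroblast markers 3 rose and none fell, and of 8 macrophage markers 3 fell and none rose. The loop of Henle and distal tubule markers summed to 859 to 1268 CPM with colchicine and 1419 to 1720 CPM in CKD, and 4 of 6 fell. Of 7 collecting duct markers 2 fell, of 5 T cell markers 2 fell, of 6 neutrophil markers 1 rose and 1 fell, and of 6 endothelial markers 2 rose. Of 4 tested liver markers 2 fell, and none of the 5 tested erythrocyte markers was called, at a median of -1.14 on the log2 scale. Their part in these calls was not tested.

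**Figure D2:**
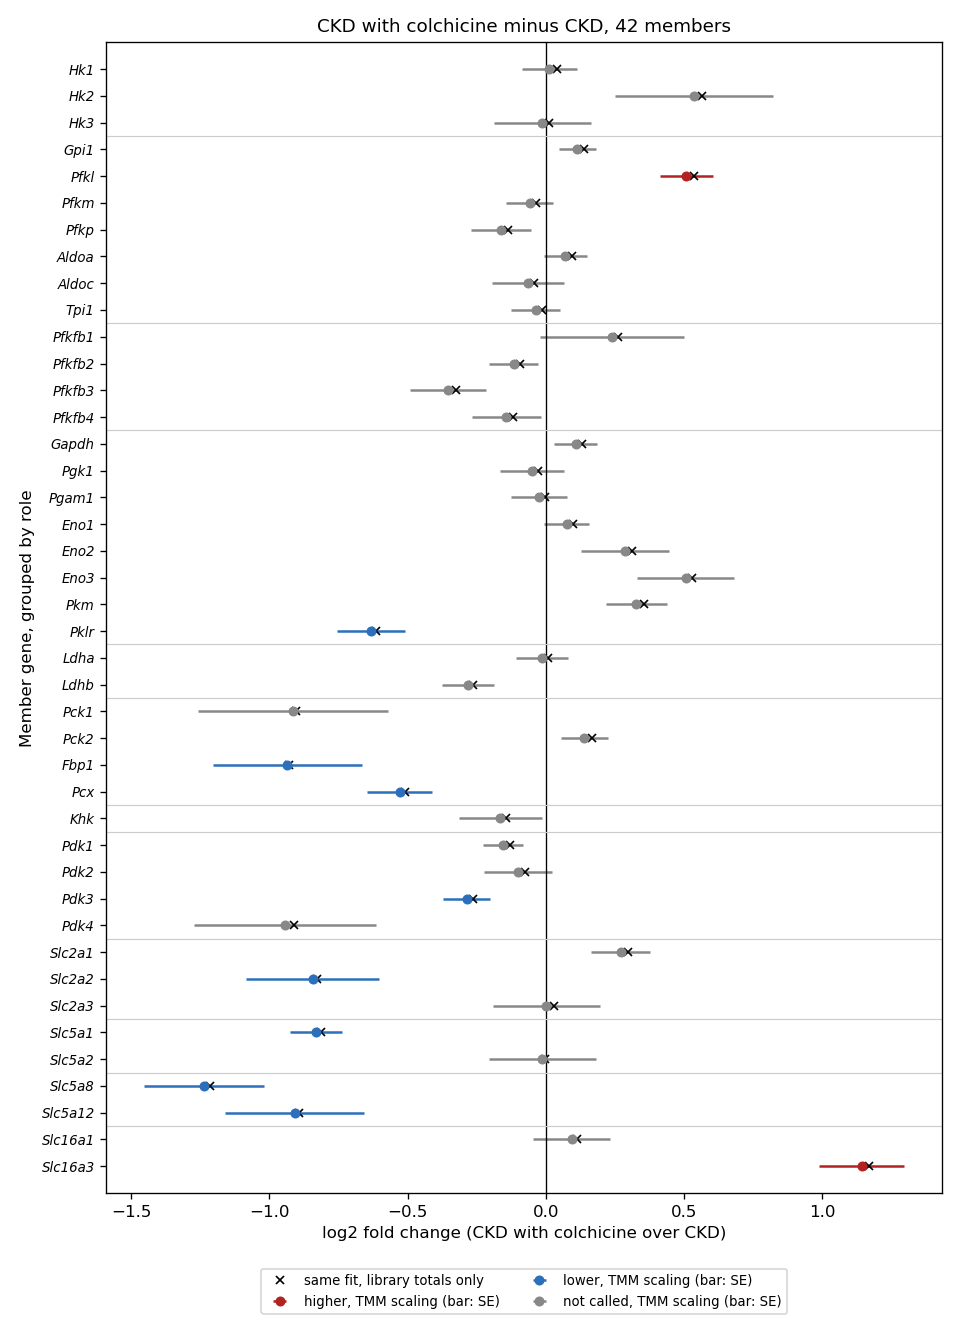
Log2 fold change (x axis) of the 42 members (y axis, grouped by role) in CKD with colchicine over CKD, with circles, bars, colours and crosses as in the plot of CKD over control. Only Slc16a3 at 1.14 and Pfkl at 0.51 are called on the right, 8 members are called on the left down to Slc5a8 at -1.24, and the crosses of library totals lie beside the circles.

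Slc16a3 stood at 15.4, 12.4, 10.1 and 10.5 CPM in colchicine replicates 1 to 4 and at 5.91, 5.77, 5.72 and 4.53 CPM in CKD. Every colchicine library was above every CKD library, at 2.21-fold (log2 1.14 ± 0.15, edgeR adjusted p = 0.000761), and the call held under all 24 alternatives. Together with the increase in CKD, it is the only member called higher in both steps. Pfkl stood at 67.4, 71.1, 55.6 and 53.9 CPM with colchicine and at 46.5, 43.3, 41.2 and 43.3 CPM in CKD. It rose 1.42-fold without overlap (edgeR adjusted p = 0.00544), also under all 24 alternatives.

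The sodium-glucose cotransporters follow side by side. Slc5a1 with colchicine stood at 38.5, 32.1, 34.8 and 41.0 CPM, against 65.9, 63.3, 65.4 and 65.8 CPM in CKD. It fell 1.78 times with no overlap (log2 -0.83 ± 0.09, edgeR adjusted p = 0.000187), under all 24 alternatives. Slc5a2 stood at 17.9, 18.3, 19.6 and 37.1 CPM with colchicine and at 23.7, 20.4, 25.9 and 23.2 CPM in CKD. Its groups overlapped at -0.01 ± 0.19, and replicate 4, labelled 5% adenine, was the high one; without it the log2 fold change was -0.33 (edgeR adjusted p = 0.031).

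The sodium-lactate cotransporter Slc5a8 stood at 25.2, 9.47, 15.6 and 15.7 CPM with colchicine and at 36.3, 39.5, 37.8 and 41.6 CPM in CKD. It was 2.36 times lower with no overlap (edgeR adjusted p = 0.00489), and a slope on the labelled adenine read at 2% ended the call (-0.999, edgeR adjusted p = 0.0878). Pklr stood at 18.7, 16.8, 23.2 and 26.9 CPM with colchicine and at 31.5, 31.6, 34.4 and 34.8 CPM in CKD, 1.55 times lower with no overlap (edgeR adjusted p = 0.00616). Pcx, the carboxylase, stood at 21.5, 20.6, 26.2 and 29.2 CPM with colchicine and at 36.4, 28.5, 36.4 and 39.2 CPM in CKD. Here replicate 4 with colchicine lay above CKD replicate 2, and the gene was 1.44 times lower (edgeR adjusted p = 0.0112). The calls of Pklr and Pcx held under all 24 alternatives.

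The other 4 members called lower rest on every CKD library: without any 1 of them, Fbp1 (edgeR adjusted p = 0.0507 to 0.106), Slc2a2 (0.0507 to 0.105), Slc5a12 (0.0544 to 0.100) and Pdk3 (0.0732 to 0.0890) did not pass. A slope on the labelled adenine, read at 2%, ended the calls of Slc2a2, Slc5a12 and Pdk3 (edgeR adjusted p = 0.111, 0.191 and 0.257), and so did colchicine replicate 1 alone (0.140, 0.363 and 0.712), where Pdk3 stood at -0.08. Fbp1 was lost without colchicine replicate 1, 2 or 3 (edgeR adjusted p = 0.0727, 0.0917 and 0.112) or control replicate 2 or 3 (0.0534 and 0.0518), and Pdk3 without control replicate 3 (0.0512). With no low-count filter Slc2a2, Slc5a12 and Fbp1 did not pass, in a fit of these 8 libraries Slc2a2, Fbp1 and Pdk3 did not, and Pdk3 also missed the threshold with upper-quartile factors, library totals only and the replicate block (edgeR adjusted p = 0.0534, 0.0585 and 0.0626). Without colchicine replicate 3 (edgeR adjusted p = 0.101 to 0.112) none of the 4 passed either, and without replicate 2 only Slc5a12 did. Fbp1 stood at 46.2, 36.0, 42.7 and 101 CPM with colchicine and at 107, 89.1, 128 and 107 CPM in CKD, so replicate 4 lay inside the CKD range and the other libraries well below it. Its log2 fold change was -0.94 ± 0.27 (edgeR adjusted p = 0.0387), and -1.38 without replicate 4 (edgeR adjusted p = 4.0e-05). Slc2a2 stood at 19.3, 9.79, 14.6 and 25.3 CPM with colchicine and at 27.5, 26.3, 37.6 and 31.4 CPM in CKD, with all colchicine libraries lower (-0.84 ± 0.24, edgeR adjusted p = 0.0369). Slc5a12 averaged 33.1 ± 12.1 CPM with colchicine and 62.0 ± 10.9 CPM in CKD (-0.91 ± 0.25, edgeR adjusted p = 0.0343). Pdk3 averaged 26.4 ± 3.66 CPM with colchicine and 32.1 ± 0.632 CPM in CKD (-0.29 ± 0.09, edgeR adjusted p = 0.0375).

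Colchicine replicate 1, the library with the 2% adenine label of the CKD group, stood apart in several members that were not called. Pck1 stood at 168, 321, 571 and 712 CPM in colchicine replicates 1 to 4, labelled 2, 3, 4 and 5% adenine, and at 697, 767, 989 and 887 CPM in CKD. Only replicate 4 reached the CKD range, and the log2 fold change was -0.92 ± 0.34 (edgeR adjusted p = 0.0933). It was -2.32 for replicate 1 alone and -0.65 without replicate 1 (edgeR adjusted p = 0.0459). Pck1 also passed with the slope on the labelled adenine and without replicate 4 (edgeR adjusted p = 1.5e-05 and 0.0317), and by DESeq2 (adjusted p = 0.0277). Hk2 stood at 45.7, 28.4, 18.0 and 22.6 CPM with colchicine and at 19.1, 20.1, 20.4 and 19.4 CPM in CKD, and Khk at 26.5, 39.7, 45.5 and 50.6 CPM with colchicine and at 40.7, 44.8, 47.4 and 49.0 CPM in CKD. Replicate 1 was the highest for Hk2 and the lowest for Pck1 and Khk. Pkm stood at 361, 299, 236 and 244 CPM with colchicine and at 233, 221, 225 and 229 CPM in CKD, with no overlap but an edgeR adjusted p of 0.0571. It passed with upper-quartile factors, the stricter count filter and the slope (edgeR adjusted p = 0.0211, 0.0347 and 0.00113). It also passed without colchicine replicate 3 or 4 (edgeR adjusted p = 0.0321 and 0.0412). Slc2a1 averaged 76.3 ± 13.5 CPM with colchicine and 63.2 ± 5.51 CPM in CKD (0.27, edgeR adjusted p = 0.0983). It passed with upper-quartile factors and the slope (edgeR adjusted p = 0.0315 and 0.0157). Pdk4 stood at 33.2, 13.2, 17.2 and 9.15 CPM with colchicine and at 30.4, 35.2, 31.8 and 42.8 CPM in CKD, where replicate 1 lay inside the CKD range and the others below it (-0.94 ± 0.33, edgeR adjusted p = 0.0748, and -1.40 without replicate 1 at 0.00141). Pdk4 also passed by DESeq2 and limma-voom (adjusted p = 0.0373 and 0.0272). With 1 library at each labelled percentage, differences between these percentages cannot be told apart from differences between libraries. Ldhb, also not called, averaged 490 ± 78.8 CPM with colchicine and 595 ± 19.5 CPM in CKD (-0.28, edgeR adjusted p = 0.0590). Ldhb passed by DESeq2 and limma-voom (adjusted p = 0.0137 and 0.0377). It also passed with RLE factors, library totals only and the slope (edgeR adjusted p = 0.0485, 0.0402 and 0.00966), and without colchicine replicate 4 (0.00464).

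**Figure D3:**
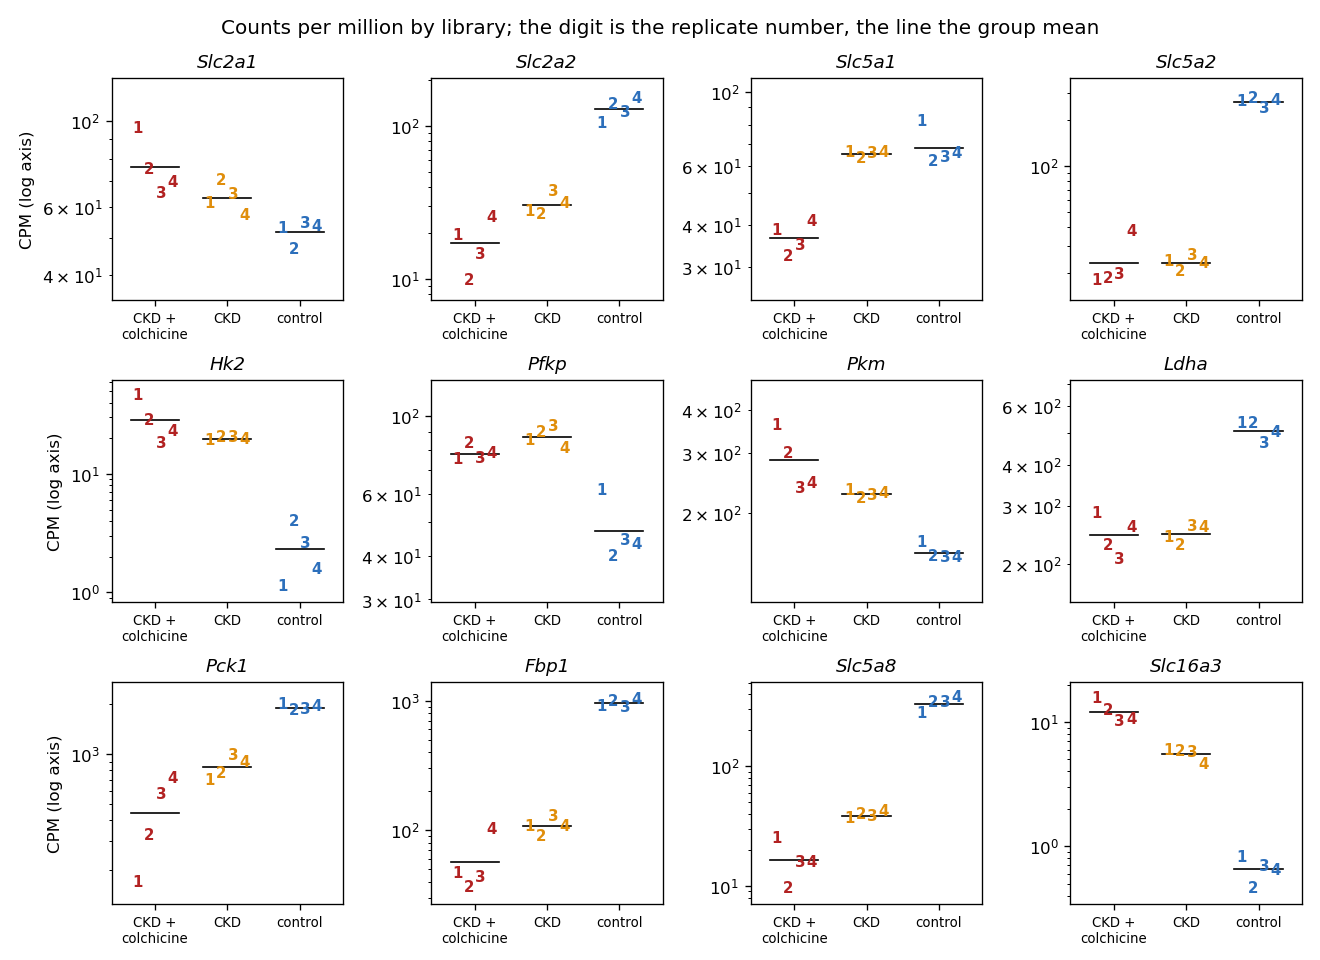
CPM on a log axis (y) of 12 members in each library, by group (x: CKD with colchicine, CKD, control), where the digit is the replicate number and the line the group mean. Slc2a2, Slc5a2, Fbp1, Pck1 and Slc5a8 are lower in both adenine-fed groups than in control, Hk2 and Slc16a3 are higher, and colchicine replicate 1 is the lowest library for Pck1 at 168 CPM and the highest for Hk2 at 45.7 CPM.

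The third comparison sets the colchicine group against control. By edgeR's test 13 members (31.0%) were higher and 24 (57.1%) lower than in control, against 37.1 and 33.4% of all genes, with a members' median of -0.56 (log2), where all genes had 0.10. The 13 include Hk3, Pfkfb1 and Slc16a3, which passed the filter only through the adenine-fed libraries. In either direction 70.5% of all genes were called, and 72.7% passed an unadjusted p below 0.05. The same control libraries serve both comparisons, so the values are given side by side and not as independent results. Slc16a3 was 18.7-fold higher with colchicine than in control and 8.46-fold higher in CKD than in control. Slc5a8 was 20.3 times lower with colchicine and 8.60 times lower in CKD, and Fbp1 16.9 times lower with colchicine and 8.84 times lower in CKD. Pfkl, at -0.23 ± 0.10 (log2) in CKD under TMM and 0.78 under library totals only, was higher with colchicine at 0.28 ± 0.10 (edgeR adjusted p = 0.0182), a call lost without colchicine replicate 2 (0.0712) or control replicate 2, 3 or 4 (0.0514 to 0.0593). Eno3 and Pfkfb1 were called higher with colchicine only against control, at 0.44 ± 0.18 and 0.72 ± 0.28 (edgeR adjusted p = 0.0402 and 0.0317). Pfkfb1, like Slc16a3, passed the filter on low counts only through the adenine-fed libraries. The Eno3 call was lost without colchicine replicate 2, 3 or 4 or control replicate 1 or 4 (edgeR adjusted p = 0.0775 to 0.135). The Pfkfb1 call was lost without colchicine replicate 3 or 4 or control replicate 2 or 3 (edgeR adjusted p = 0.0564 to 0.0971). A slope on the labelled adenine, read at 2%, ended both calls (edgeR adjusted p = 0.513 for Eno3 and 0.217 for Pfkfb1). Eno3 also did not pass by limma-voom (adjusted p = 0.0621) or in a fit of these 8 libraries (edgeR adjusted p = 0.0563). Slc5a1 and Pklr were called lower at -0.90 ± 0.09 and -0.36 ± 0.12 (edgeR adjusted p = 4.9e-07 and 0.0192), and both turned positive, to 0.14 and 0.68, under library totals only. Without colchicine replicate 2 or control replicate 4 the Pklr call was lost (edgeR adjusted p = 0.0605 and 0.0546). Upper-quartile factors and a fit of these 8 libraries ended the Pklr call as well (edgeR adjusted p = 0.287 and 0.0522).

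Ratios of 2 members counted in the same library do not depend on how libraries are scaled, apart from the prior count where counts are low. In bulk tissue the 2 transcripts can come from different cells. A shift between isoforms within cells therefore cannot be told apart from a change in the cells present. The ratios were computed as log2 ratios of counts with a prior count of 2, for 15 pairs, and are described without a test. Slc2a1 over Slc2a2, the general over the tubular glucose carrier, stood at 2.31, 2.93, 2.15 and 1.46 with colchicine, at 1.15, 1.41, 0.78 and 0.86 in CKD and at -0.99, -1.57, -1.17 and -1.52 in control. The 3 groups did not overlap, and the mean ratio was higher by 1.16 with colchicine than in CKD and by 2.36 in CKD than in control. Slc16a3 over Slc16a1, the exporter over the carrier of both directions, stood in the same order, with differences of 1.03 and 3.14 and no overlap. Pkm over Pklr, pyruvate kinase of other cells over that of tubule, liver and red cells, stood at 4.27, 4.15, 3.34 and 3.18 with colchicine, at 2.88, 2.81, 2.71 and 2.72 in CKD and at 2.51, 2.50, 2.61 and 2.32 in control. Here the larger step was the one with colchicine, 0.96, where CKD against control gave 0.29.

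In most other pairs the groups were apart in CKD against control, and the colchicine libraries overlapped those of CKD; Slc5a1 over Slc5a2 had no overlap at either step, and Pdk3 over Pdk2 overlapped at both. Pfkp over Pfkm was higher by 2.15 in CKD than in control, Eno2 over Eno1 by 3.87, Hk2 over Hk1 by 3.11 and Hk3 over Hk1 by 3.72, each without overlap. Pfkp over Fbp1, the opposing enzymes of the same step, was higher by 4.06 in CKD than in control. Pck2 over Pck1 stood at -2.86, -3.68, -4.42 and -5.11 with colchicine, at -5.11, -5.04, -5.53 and -5.34 in CKD and at -7.33, -7.26, -7.24 and -7.27 in control, so colchicine replicate 4 reached the CKD range. Slc5a1 over Slc5a2 differed in sign between the steps: it was higher by 3.42 in CKD than in control, and lower with colchicine than in CKD, at 1.10, 0.81, 0.83 and 0.14 with colchicine and 1.48, 1.63, 1.33 and 1.50 in CKD. Ldha over Ldhb and Aldoc over Aldoa were lower in CKD than in control, with differences of -0.36 and -0.96 and no overlap.

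**Figure D4:**
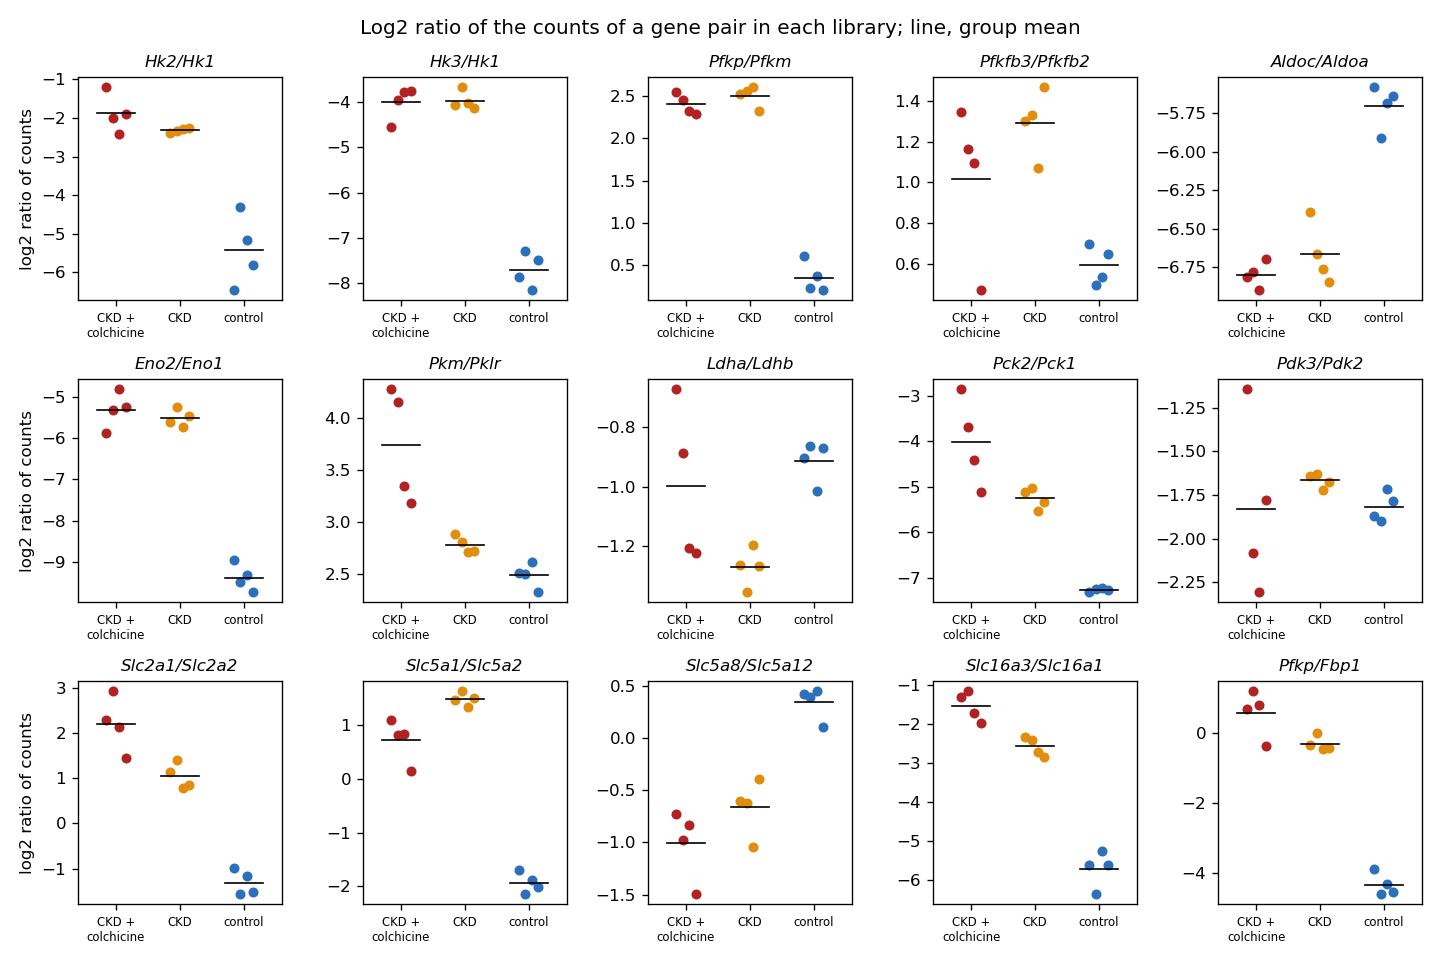
Log2 ratio of counts (y axis) of 15 pairs of members in each library, by group (x axis: CKD with colchicine, CKD, control), with the replicates from left to right and the group mean as a line. Eno2/Eno1, Hk3/Hk1, Slc2a1/Slc2a2, Slc5a1/Slc5a2, Slc16a3/Slc16a1 and Pfkp/Fbp1 are far higher in both adenine-fed groups than in control, Ldha/Ldhb is lower in CKD than in control, and Pck2/Pck1 spreads over the colchicine libraries between -2.86 and -5.11.

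Levels of different genes were compared per length, as CPM per 1000 bases of exon. For glucose carriers on that scale, Slc2a1 averaged 23.4 ± 4.14 with colchicine, 19.4 ± 1.69 in CKD and 15.9 ± 1.10 in control, while Slc2a2 averaged 3.09 ± 1.19 with colchicine, 5.51 ± 0.908 in CKD and 23.3 ± 3.68 in control. Slc2a2 was thus the higher of the pair in control and Slc2a1 in both adenine-fed groups. Likewise Slc5a2 averaged 10.2 ± 4.07 with colchicine, 10.2 ± 0.996 in CKD and 114 ± 7.28 in control, and Slc5a1 8.92 ± 0.951 with colchicine, 15.9 ± 0.305 in CKD and 16.6 ± 2.19 in control. Slc5a2 exceeded Slc5a1 in control, Slc5a1 exceeded Slc5a2 in CKD, and with colchicine the levels lay within their spread. Pfkp averaged 20.3 ± 1.32 in CKD and 10.96 ± 2.23 in control and Pfkm 5.13 ± 0.188 in CKD and 12.1 ± 0.975 in control on the same scale. Slc16a3, despite its increase, stayed below Slc16a1 in every group, at 2.72 ± 0.551 against 7.91 ± 1.36 with colchicine, 1.23 ± 0.144 against 7.40 ± 0.790 in CKD and 0.146 ± 0.033 against 8.98 ± 1.61 in control. Hk2 likewise stayed below Hk1, at 3.52 ± 0.108 against 20.4 ± 0.913 in CKD.

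The genes around the pathway were followed in lists of 82 genes, of which 77 were tested. In CKD 16 (20.8%) were higher and 51 (66.2%) lower than in control, with a median log2 fold change of -0.69, where 34.1 and 33.4% of all genes were called. With colchicine 4 (5.19%) were higher and 29 (37.7%) lower than in CKD, with a median of -0.22, where 6.79 and 8.24% of all genes were called. The largest share lay in the list on the fate of pyruvate, where 12 of 14 were lower in CKD than in control and 10 of 14 lower with colchicine than in CKD, beside the 33.4 and 8.24% of all genes.

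**Figure D5:**
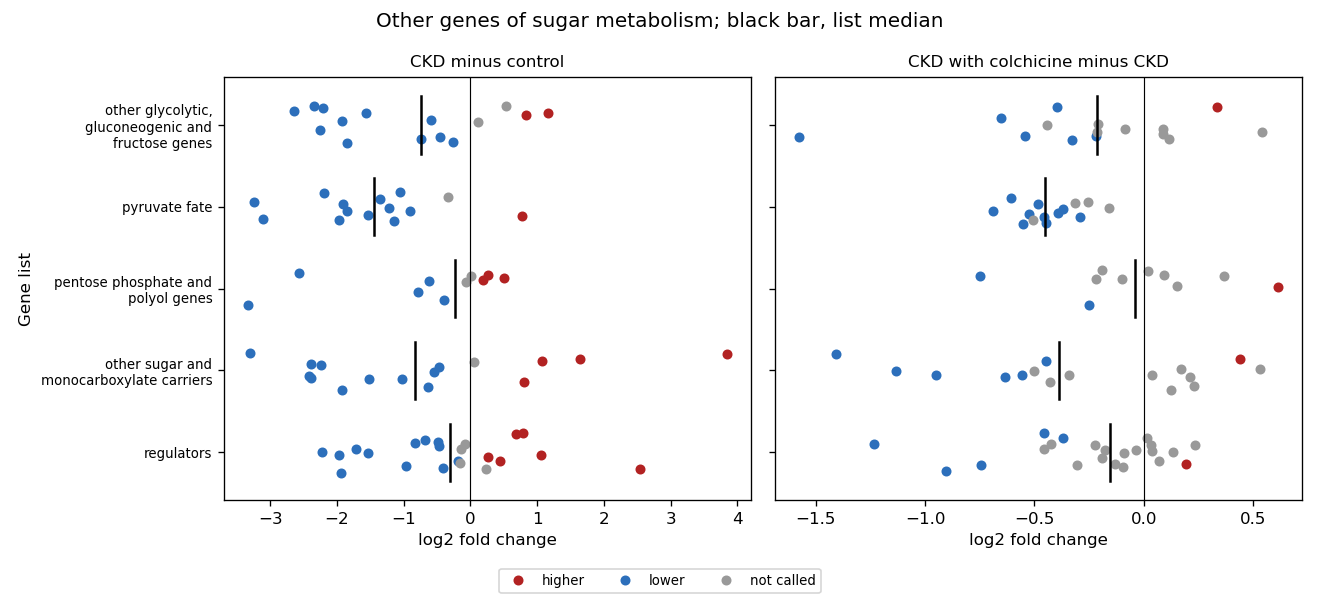
Log2 fold changes (x axis) of 77 other genes of sugar metabolism in 5 lists (y axis), in CKD over control on the left and CKD with colchicine over CKD on the right, under TMM scaling. Points are genes coloured by call and black bars are list medians; the pyruvate list has the lowest medians, -1.44 on the left and -0.45 on the right, and under library totals only the values on the left move up by about 1.

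Mpc1, a subunit of the carrier that brings pyruvate into mitochondria, stood at 64.9, 56.3, 59.2 and 76.0 CPM with colchicine, at 80.1, 83.3, 93.0 and 95.0 CPM in CKD and at 389, 419, 387 and 410 CPM in control. All 3 groups were separate, and Mpc1 fell by 2.19 in CKD against control and by 0.46 with colchicine against CKD (log2, edgeR adjusted p = 3.3e-11 and 0.00710). Its partner Mpc2 fell in CKD by 1.85 and was not called with colchicine, at -0.16 ± 0.08. Ldhd, the D-lactate dehydrogenase, averaged 76.6 ± 17.2 CPM with colchicine, 124 ± 5.24 CPM in CKD and 1168 ± 112 CPM in control. Sord, which makes fructose from sorbitol, averaged 108 ± 30.1 CPM with colchicine, 182 ± 20.8 CPM in CKD and 1834 ± 88.3 CPM in control, and fell at both steps.

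G6pc, glucose-6-phosphatase, which releases the glucose that gluconeogenesis makes, stood at 17.2, 13.4, 22.3 and 36.7 CPM with colchicine, at 63.9, 50.2, 80.0 and 71.9 CPM in CKD and at 343, 526, 394 and 408 CPM in control. It fell by 2.65 in CKD against control and by 1.58 with colchicine against CKD (log2, edgeR adjusted p = 3.4e-06 and 0.00573), with the groups apart at both steps. Slc37a4, which feeds that enzyme, fell as well, by 2.34 in CKD against control and by 0.54 with colchicine against CKD. G6pc3, the widely expressed phosphatase, rose with colchicine by 0.34 (edgeR adjusted p = 0.0408), and Pgls of the pentose phosphate pathway and the carrier Slc2a8 rose by 0.62 and 0.44. G6pc3 averaged 38.4 CPM with colchicine, 30.4 CPM in CKD and 51.1 CPM in control. Colchicine replicate 1 lay inside the CKD range for G6pc3 (30.3 CPM) and Slc2a8 (7.14 CPM), and above it for Pgls (18.4 CPM). Among carriers, Slc2a6, a lysosomal carrier of myeloid cells, averaged 6.13 ± 0.994 CPM with colchicine, 4.24 ± 0.865 CPM in CKD and 0.290 ± 0.0965 CPM in control. It rose by 3.84 in CKD against control, and Slc2a10 by 1.65. Slc16a4 fell by 3.31 in CKD and a further 1.41 with colchicine.

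Of the regulators, Hif1a, the oxygen-sensing factor whose transcript is not its main point of control, averaged 112 ± 38.1 CPM with colchicine, 139 ± 8.20 CPM in CKD and 118 ± 19.9 CPM in control and was called in no comparison. Myc, a driver of glycolytic genes, averaged 41.4 ± 20.7 CPM with colchicine, 39.4 ± 5.81 CPM in CKD and 6.75 ± 1.34 CPM in control. It rose by 2.54 in CKD against control, and colchicine replicate 1 stood highest at 72.1 CPM. Hnf4a, a proximal tubule factor that drives gluconeogenic genes, averaged 63.0 ± 16.7 CPM with colchicine, 118 ± 9.07 CPM in CKD and 463 ± 28.4 CPM in control, and fell by 1.98 in CKD and 0.90 with colchicine. Ppara, which turns on fatty acid use, stood at 15.7, 13.3, 15.4 and 18.1 CPM with colchicine and at 37.9, 33.0, 42.03 and 34.2 CPM in CKD, and fell by 1.24 with colchicine (edgeR adjusted p = 8.4e-05). Ppargc1a, the coactivator of mitochondrial genes, fell by 0.97 in CKD under TMM, stood at 0.04 under library totals only, and fell by 0.46 with colchicine. Txnip, which restrains glucose uptake, rose by 0.69 in CKD and stood at -0.46 ± 0.16 with colchicine (edgeR adjusted p = 0.0630), and Bsg, the chaperone that brings monocarboxylate transporters to the membrane, fell by 1.03 in CKD and by 0.01 under library totals only.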

How the data were processed

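RNA for 12 mouse kidney libraries was prepared with TaKaRa RNAiso Plus and the CORALL RNA-seq V2 kit, per the labels' protocols. The deposited values are estimated counts per gene in whole numbers, 1 column per library, made by the authors; fastp, STAR, Salmon and the build GRCm39 are named in the submitters' processing notes, without versions or settings. The unit was read from the values and these names, and strand handling of the counting is not stated.

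From the counts, genes were kept by filterByExpr with a minimum count of 10, scaled by TMM and tested with edgeR 4.0.16 (robust quasi-likelihood F test, two-sided, 3 group means over 12 libraries, R 4.3.3), with Benjamini-Hochberg adjustment over 17841 genes and calls at an adjusted p below 0.05. The procedure was run on simulated counts in which few genes changed, evenly up and down. That run did not test the scaling used against control. CPM is per 1000000 TMM-scaled counts, ± after a level is the SD of 4 libraries and after a log2 fold change the SE. Exon lengths come from GENCODE M21 (GRCm38), used for lengths only, and promoters from RefSeq GRCm38.p6. Precision rested on library totals of 22200909 to 38253100 counts and on the spread between the 4 libraries of a group.

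All 42 genes are reported. Of the other pathway genes, the 3 highest and 3 lowest called in each comparison are named, with G6pc, Slc37a4, Mpc1, Mpc2, Bsg, Hif1a, Ppargc1a, Hnf4a and Txnip; 1 other gene of this rule is not reported here. The members and lists were chosen with earlier results of these data known. Alternatives were other scalings and filters, DESeq2 1.42.0, limma-voom 3.58.1, a fit of 8 libraries, a replicate block, leaving out each library, colchicine replicate 1 alone and a slope on the labelled adenine.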

Additional observations from a re-analysis of the deposited data

Results flagged for a closer look

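In 11 of 126 groups of 4 libraries, 1 library lay farther from the nearest other than Dixon's 95% critical value for 4 samples allows. Chance flags about 1 in 20 groups. With colchicine, Fbp1 in replicate 4 was at 101 CPM, where the others were at 36.0 to 46.2 CPM, and Slc5a2 in the same replicate was at 37.1 CPM, where the others were at 17.9 to 19.6 CPM. Slc2a3 in colchicine replicate 1 was at 6.55 CPM beside 3.58 to 3.95 CPM, and Aldoc in replicate 3 at 4.25 CPM beside 5.43 to 5.58 CPM. In CKD, Aldoc in replicate 1 was at 6.51 CPM beside 4.97 to 5.16 CPM, and Slc2a3 in replicate 1 at 3.87 CPM beside 4.63 to 4.73 CPM. Pfkfb1 in CKD replicate 2 was at 2.17 CPM beside 1.29 to 1.31 CPM, and Slc16a3 in CKD replicate 4 at 4.53 CPM beside 5.72 to 5.91 CPM. In control, Pfkl and Pkm in replicate 1 were at 58.6 and 165 CPM, where the others were at 48.0 to 49.4 and 149 to 150 CPM, and Pfkfb3 in replicate 4 was at 35.1 CPM beside 29.8 to 30.6 CPM.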

How the results depend on the processing

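Library totals only changed the comparisons with control most. For CKD against control they gave 25 members higher and 14 lower and 13197 genes higher and 1850 lower, and turned the log2 fold change of Gpi1 to 0.40, Pfkl 0.78, Aldoa 0.27, Pfkfb2 0.64, Pgam1 0.039, Eno1 0.31, Eno3 0.95, Ldhb 0.33, Slc5a1 0.95 and Slc16a1 0.74. For colchicine against control they gave 23 members higher and 14 lower and 13762 genes higher and 1953 lower, and turned Gpi1 to 0.54, Aldoa 0.37, Pfkfb2 0.55, Pfkfb3 1.01, Pgam1 0.038, Eno1 0.41, Pklr 0.68, Ldhb 0.069, Pdk1 0.93, Pdk4 0.83, Slc5a1 0.14 and Slc16a1 0.85. In that comparison colchicine replicate 1 alone gave Pfkfb3 0.41, Eno3 -0.045 and Pdk4 0.70, and the slope on labelled adenine, read at 2%, gave Pfkfb3 0.34.

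For colchicine against CKD, 4 members were higher with upper-quartile factors, the slope or replicate 1 alone, and 5 were lower without a count filter or in a fit of 8 libraries. Over all genes, 1212 were higher and 1470 lower; the replicate block gave 694 higher, the slope 392 higher and 616 lower, replicate 1 alone 537 higher and 644 lower, and DESeq2 2258 lower. Leaving out 1 library gave 2 to 4 members higher (4 without colchicine replicate 1) and 4 to 11 lower (11 without colchicine replicate 4), and 419 (without CKD replicate 3) to 2882 genes higher and 573 to 3519 lower (both highest without colchicine replicate 1). The causes were not tested. For CKD and colchicine against control, leaving out 1 library gave 9 to 13 and 11 to 13 members higher and 22 to 23 and 23 to 25 lower.

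Replicate numbers in the labels are not said to pair libraries, and same-numbered deviations correlated by -0.28 to -0.003 (CKD and control), -0.12 to 0.19 (colchicine and CKD) and -0.22 to 0.07 (colchicine and control), with 0, 2 and 1 of 8 libraries most like their own number. With the replicate block 11 members were higher and 23 lower in CKD, 2 higher and 7 lower with colchicine against CKD, and 13 higher and 24 lower with colchicine against control. The differences in the 15 log2 ratios moved by less than the spread between replicates under a prior count of 0.5 and each left-out library.

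With 4 libraries a group, and colchicine libraries that each carry their own adenine label, small differences with colchicine were not detectable with certainty. Hk3, Pfkfb1, Slc16a3 and Eno2 rest on few counts in control.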
